A study of Mus musculus with 37 samples.

Results

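The 35 interferon-stimulated genes described here were taken as a list of gene names. The rule uses no measured value, but the list was drawn up with earlier results of these data known. The list spans signalling factors, nucleic acid sensors, the ISG15 system, the IFIT, OAS and MX families, and other antiviral proteins. A probe set with 1 gene symbol named 33 of them, among 18194 genes so named on the array. Isg15, which encodes the ubiquitin-like protein of the interferon response, was named only by a probe set shared with other genes, and no probe set named Ifi44, so neither has a value here. The 33 genes had 53 probe sets, and 13 genes had more than 1. Where a gene had several, the one with the highest mean over all arrays stands for it unless another is named.

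RNA came from primary astrocytes of male and female neonate mice (postnatal day 0 to 1), of the 129S4/SvJae strain (129) or the C57BL/6J strain (B6). All the cultures went through nucleofection with pcDNA3.1-hygro, carrying either CDCA7L or no insert, so the controls share the electroporation and the plasmid. The groups held 4 vector and 4 Cdca7l arrays of 129 females, 5 and 5 of 129 males, 5 and 4 of B6 females, and 5 and 5 of B6 males, 37 arrays in all. The design text calls the cultures independent primary isolates, and each label gives a clone number, used below to name an array, as in 3(3). No interferon treatment is named in the labels. Levels are GCRMA log2 values, and a probe set counts as above background where it exceeds 3.189, the median of the deposited table.

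Type I interferons bind a receptor made of Ifnar1 and Ifnar2, whose kinases Jak1 and Tyk2 phosphorylate STAT proteins, Stat2 among them. A complex that holds Stat2 and Irf9 binds interferon-stimulated response elements in the promoters of antiviral genes, while interferon gamma acts mainly on a different element, the gamma-activated site. Astrocytes respond to type I interferon and can make it when they sense viral nucleic acid.

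The RefSeq promoter table (GRCm38.p6, 250 bases before to 50 bases after each start site) held 25 of the 35 genes. The response element core, searched as GAAANNGAAA on either strand, was in the 300-base window of 12 of these 25 genes (48%), and in 1079 of 27025 genes in the table (3.99%). The longer form with a C after those letters was in 10 of the 25 (40%) and in 0.944% of all genes. The gamma-activated site core TTCNNNGAA was in 8 of the 25 (32%) and in 9.55% of all. The stretches below belong to genes whose levels are described later, and capitals mark the matches on either strand, so that a match on the opposite strand shows as its reverse complement. Those of Rsad2, Ifit3, Ifit1 and Oas1a hold the response element core and that of Irf1 the gamma-activated site core; a match is a string of letters, not evidence of binding.
Rsad2, chr12:26456543-26456592, minus strand: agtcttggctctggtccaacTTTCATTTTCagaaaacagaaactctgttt
Ifit3, chr19:34583353-34583436, plus strand: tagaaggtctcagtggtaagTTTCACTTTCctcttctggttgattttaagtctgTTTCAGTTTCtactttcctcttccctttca
Ifit1, chr19:34640765-34640833, plus strand: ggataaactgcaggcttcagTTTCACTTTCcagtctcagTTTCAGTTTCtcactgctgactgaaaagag
Oas1a, chr5:120907526-120907565, minus strand: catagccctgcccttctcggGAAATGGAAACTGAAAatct
Irf1, chr11:53769904-53769952, plus strand: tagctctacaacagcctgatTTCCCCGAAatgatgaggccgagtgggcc

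Ifit3 and Ifit1 each carry 2 separate copies within a short stretch, and the capitals of Oas1a cover 2 overlapping matches. The other genes with the response element core were Bst2, Ddx58, Eif2ak2, Ifih1, Ifitm3, Isg15, Oas3 and Stat2. For the genes of the table without a match, these letters are not in this window, and nothing more follows from it.

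Some facts of the whole data set bear on the values. RNA of Cdca7l averaged 12.57 on the Cdca7l arrays and 7.96 on the vector arrays, a difference of 4.61 ± 0.48 (SE; limma adjusted p = 1.25e-06); the means of the 4 Cdca7l groups were all above those of the 4 vector groups. Xist was 2.40 on the array labelled B6 female vector 5.1(1) and 10.71 to 12.20 on the other female arrays. The Y-linked Eif2s3y, at 11.91 on that array, lay inside the male range. On the array of 129 female vector 1(3) the upper quartile of all values was 8.36, against 9.03 to 9.51 on the others. Leaving both arrays out changed 1 call of a member, given below. Defining astrocyte markers were abundant, with 8 of 10 above background on all 37 arrays, though S100b was above it on 13. The fibroblast and meningeal markers Col1a1 and Col1a2 were also above background on all 37 arrays. On the vector and Cdca7l arrays 3(1) and 5(1) of 129 males, all 6 such markers were above it, with mean levels of 12.53 to 12.67. On each of these arrays 2 of 6 endothelial markers were above it too. The part of these cells was not tested. Among 14 microglia and macrophage markers, Cx3cr1, Itgam and Trem2 were above background on no array, and 11 of the 14 were above it on 129 male vector 5(2) and 3(2).

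Most of the interferon-stimulated genes were detected without any added interferon. Of the 33 measured, 23 were above background on all 37 arrays, 9 on some and 1, Oas2, on none. Levels of different genes are not compared, since each probe set has its own response. To be tested, a probe set had to exceed background on at least 4 arrays; 29 genes passed and Oas2, Oas3, Mx2 and Isg20 did not.

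Among the signalling factors, Irf9, the DNA-binding subunit of the STAT complex, ranged from 9.11 to 11.72 over the 37 arrays. Stat2, its partner, ranged from 5.76 to 9.48, and Irf1, a transcription factor induced by interferon gamma, from 7.45 to 11.76. Irf7, which amplifies type I interferon production, ran from 2.88 to 8.06, with its peak on 129 male vector 5(2) and its lowest value on B6 male vector 5.6(1). Each of these 4 genes spanned more than 2 log2 units over the arrays.

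The cytosolic RNA sensors Ifih1 (MDA5) and Ddx58 (RIG-I) lay at 7.35 to 10.95 and 9.27 to 11.62. Dhx58 (LGP2), the third helicase of that family, was above background on 23 arrays, and Zbp1, a sensor of Z-form nucleic acid, on 36. In the ISG15 system, the protease Usp18 ran from 9.16 to 13.13 and Herc6, the mouse ligase that attaches ISG15, from 5.41 to 11.65. The RNA-binding proteins Ifit1, Ifit2 and Ifit3 were above background on all 37 arrays, with lowest values of 9.70, 8.60 and 10.25.

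The oligoadenylate synthetase family was split. Oas1a, whose product activates the ribonuclease RNase L, was above background on 36 arrays and Oasl2, a family member with ubiquitin-like domains, on all 37, from 3.34 to 12.27. Oas2 and Oas3 peaked at 3.08 and 3.33, both on 129 male vector 3(1). Oasl1 exceeded background on 4 arrays: 6.59 on B6 male Cdca7l 5.6(1), 6.39 on B6 male Cdca7l 2(2), 6.02 on B6 female vector 5.1(1) and 4.44 on B6 female Cdca7l 4(5). All 4 arrays with Oasl1 above background were of B6, and 3 of them carried Cdca7l. On these arrays, in the order listed, 7, 8, 10 and 4 of the 14 microglia and macrophage markers were above background. The part of microglia was not tested.

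Mx1, a GTPase that traps viral ribonucleoproteins, was low but above background throughout, from 3.19 to 7.47, and Mx2 peaked at 4.41 on 129 male vector 5(2). Ifitm3, which blocks fusion of enveloped viruses, ran from 13.25 to 14.65. Isg20, an RNA exonuclease, peaked at 3.34 on B6 female Cdca7l 6(3). Bst2 (tetherin), Eif2ak2 (the kinase PKR), Parp9, Parp14, Rtp4, Xaf1, Ifi35, Ifi27, Samd9l and Cmpk2 were above background on every array. Rsad2 (viperin) was above it on all but 129 female vector 4(1), where it lay at 2.69.

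Within groups, the SD of a gene had a median of 0.868 over the 29 tested members, against 0.559 over all 12121 tested genes. Oasl2 spread most, with a within-group SD of 2.06, followed by Rsad2 (1.64), Cmpk2 (1.57) and Oas1a (1.47). Of the tested members, 12 spread more than the upper quartile of all tested genes, 0.910. Ifi27 and Ifitm3 spread by 0.28 each.

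**Figure D1:**
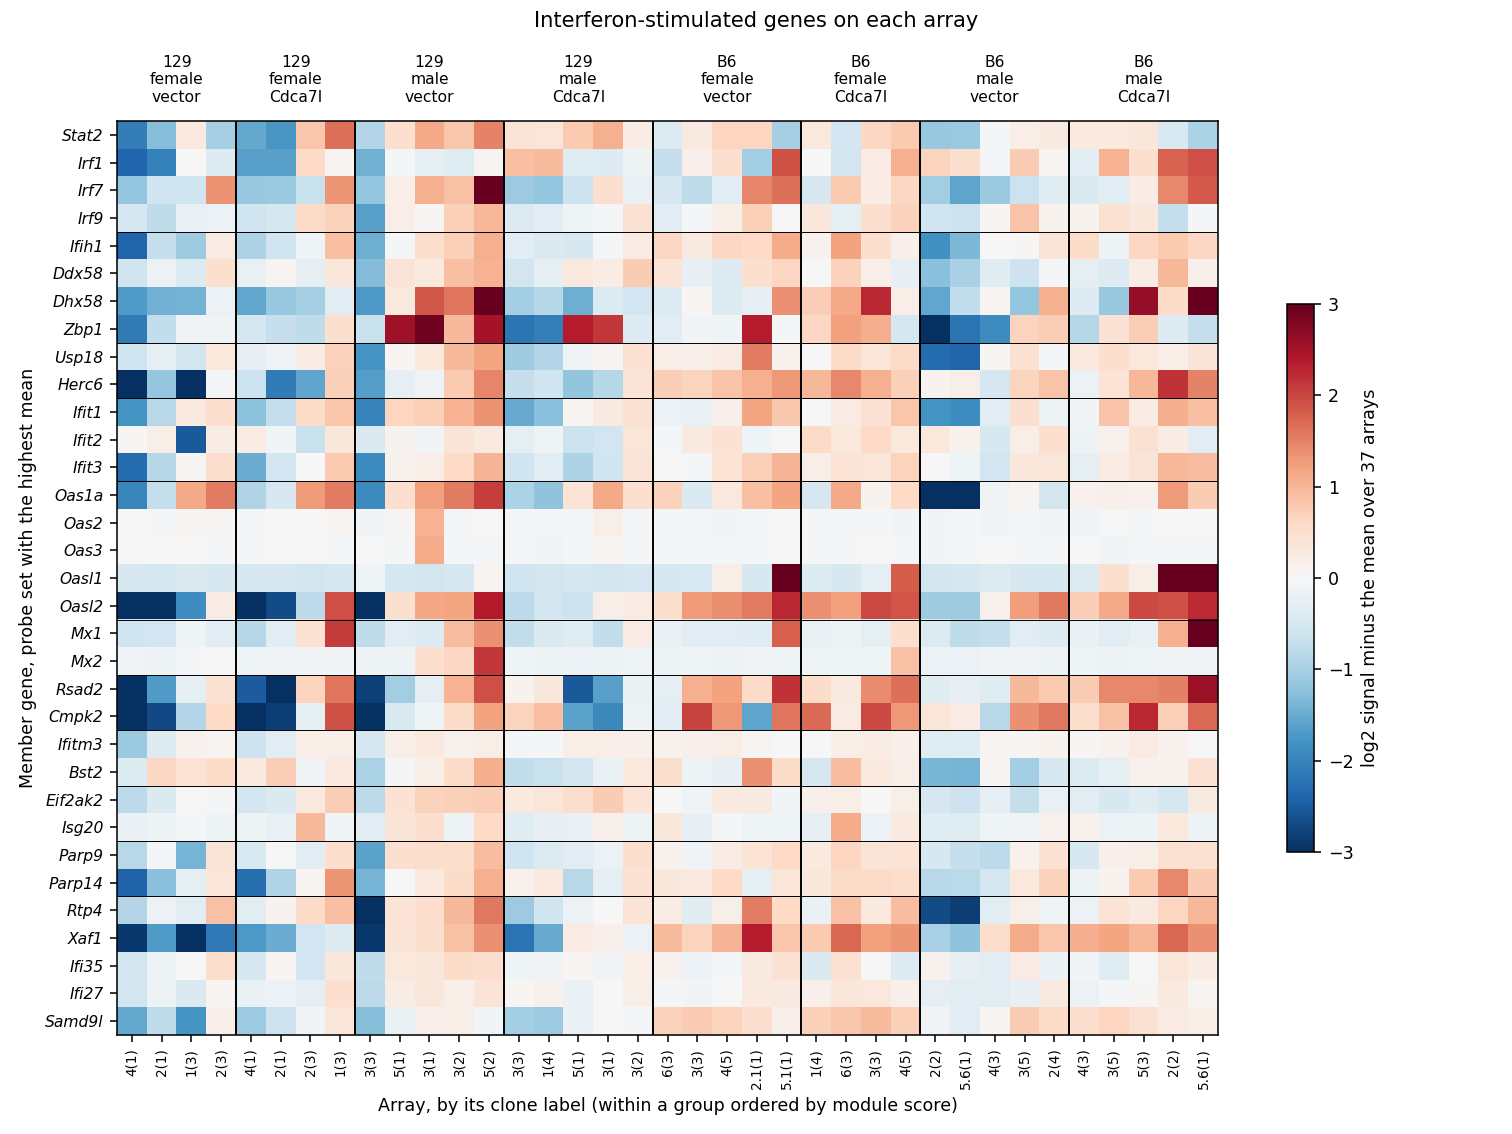
Level of each interferon-stimulated gene on each of the 37 arrays, as the GCRMA log2 value minus that gene's mean over all arrays; columns are arrays by group and rows are genes by role. Whole columns are high or low together, such as 129 male vector 3(3) and 129 female vector 4(1) on the low side and 129 male vector 5(2) on the high side.

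RNA of the receptors and kinases was detected and that of the ligands was not, or on 1 array at most. All 5 measured interferon receptor genes and all 4 measured kinases and STATs were above background on all 37 arrays: Ifnar1 ran from 8.63 to 11.50, Ifnar2 from 8.08 to 10.52, Jak1 from 6.13 to 11.55 and Tyk2 from 4.82 to 7.97. Of 7 interferon genes with a probe set, none was above background on more than 1 array, and Ifnb1 (2.11 to 2.23) and Ifng (2.24 to 2.44) were at background throughout. Tlr3, the endosomal receptor for double-stranded RNA, ran from 12.48 to 13.76, while the feedback inhibitor Socs1 lay at 1.61 to 1.68.

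Strain was the comparison in which interferon-stimulated genes passed the test. Averaged over both sexes and plasmids, 8 of the 29 tested members were higher in B6 than in 129 and none was lower (limma adjusted p under 0.05). One of the 8 is Xaf1, whose second probe set went the other way; without it, 7 of 28 were higher. Over all probe sets tested, 25.2% differed between the strains, 14.6% being higher in B6 and 10.6% higher in 129. Counted by gene, 27.6% of the tested members and 26.9% of all tested genes were called, so the share of members called was close to that of all genes. Of the 33 measured members, 22 lay higher in B6, and their median difference was 0.15, against 0.02 over all genes tested. Each of the 8 is given below as its lowest, median and highest value over the 18 arrays of 129 and the 19 of B6.

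Xaf1, an interferon-induced promoter of apoptosis, lay at 7.01, 9.31 and 11.71 in 129 and at 9.14, 11.35 and 12.69 in B6 on the probe set with its highest mean. The difference was 1.99 ± 0.31 (SE; adjusted p = 1.69e-05), although the ranges overlap. Samd9l, an antiviral factor that restricts translation, lay at 9.67, 11.24 and 11.81 in 129 and at 11.12, 12.02 and 12.39 in B6, a difference of 1.00 ± 0.17 (adjusted p = 5.05e-05). For Samd9l, 13 of the 19 B6 arrays were above the highest 129 array.

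Herc6 lay at 5.41, 8.80 and 10.95 in 129 and at 8.98, 10.33 and 11.65 in B6, a difference of 1.71 ± 0.31 (adjusted p = 0.000182). Its other 3 probe sets passed in the same direction, with differences of 1.99, 1.49 and 2.15. The last 2 of these were each above background on 2 of 18 arrays of 129, and on 17 and 14 of 19 of B6. They passed the filter only through B6, so their calls add no support. Oasl2 lay at 3.34, 9.28 and 12.27 in 129 and at 8.82, 11.26 and 12.15 in B6, a difference of 2.56 ± 0.66 (adjusted p = 0.00529). The low end of the 129 range carries much of the Oasl2 difference, since the highest values of the strains are close.

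Rsad2, a radical SAM enzyme that makes a chain-terminating nucleotide, and Cmpk2, the nucleotide kinase that supplies it, are neighbours on chromosome 12. Rsad2 lay at 2.69, 9.32 and 11.55 in 129 and at 9.24, 10.58 and 12.20 in B6, a difference of 1.91 ± 0.53 (adjusted p = 0.00874). Cmpk2 lay at 4.60, 8.70 and 10.98 in 129 and at 7.49, 10.36 and 11.34 in B6, a difference of 1.93 ± 0.50 (adjusted p = 0.00582). In both genes the 129 arrays reached far lower than any B6 array, and the upper ends were within 1 log2 unit of each other. A second probe set of Rsad2 gave a larger difference of 3.21 ± 0.59 (adjusted p = 0.0002).

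Irf1 lay at 7.45, 9.51 and 10.76 in 129 and at 8.80, 10.31 and 11.76 in B6, a difference of 0.95 ± 0.28 (adjusted p = 0.0140). Ifit3 lay at 10.25, 12.38 and 13.59 in 129 and at 12.00, 12.92 and 13.58 in B6, a difference of 0.67 ± 0.24 (adjusted p = 0.0414). Both ranges overlap widely, and Ifit3 was no longer called in 19 of the 37 fits that each left out 1 array.

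**Figure D2:**
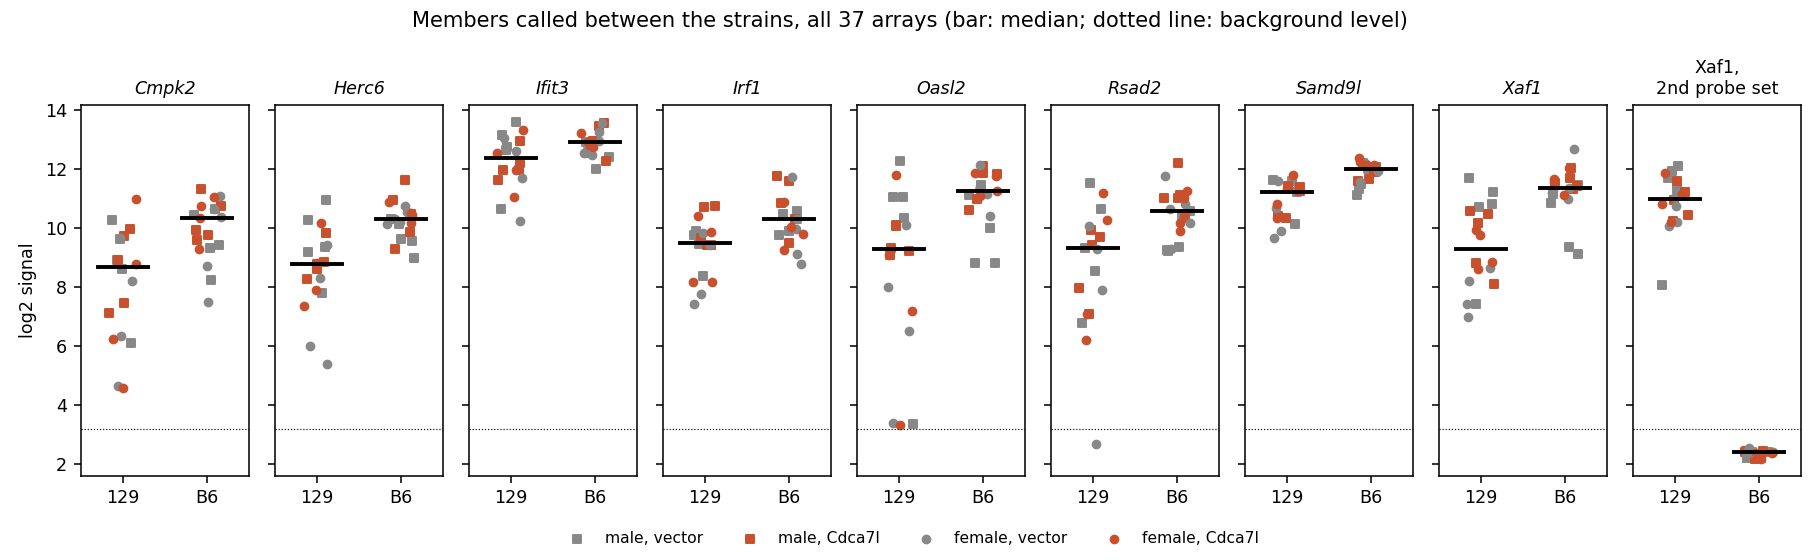
Log2 level of the 8 interferon-stimulated genes called between strains, 1 point per array, 18 arrays of 129 and 19 of B6, with a bar at the median of each strain, symbols for sex and colours for plasmid; the last panel is the second probe set of Xaf1, and the dotted line is background. In the other 8 panels the B6 points span a narrower range, while the 129 points reach lower, to 3.34 for Oasl2 and 2.69 for Rsad2.

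A part of these differences rested on 3 arrays of 129 that were low in many members: 129 female vector 4(1), 129 female Cdca7l 4(1) and 129 male vector 3(3). They were picked for their low values, so leaving them out was bound to shrink the differences. The B6 male vector arrays 2(2) and 5.6(1), also low on average over the members, stayed in. The values of this fit are therefore a description only. Without the 3 arrays of 129, 7 members were called, 6 of them among those 8. Ifit3 (0.31, adjusted p = 0.204) and Irf1 (0.71, adjusted p = 0.0828) were not called. The differences of Xaf1, Herc6 and Samd9l then stood at 1.72, 1.47 and 0.83. Those of Oasl2, Cmpk2 and Rsad2 fell to 1.50, 1.30 and 1.21, still called with adjusted p-values of 0.00522, 0.0374 and 0.0358. Eif2ak2, chosen here because it became a call, was lower in B6 (-0.43, adjusted p = 0.00287). The median over the 33 members was -0.002 without these arrays. Without the 4 arrays with the highest microglia marker scores (129 male vector 5(2) and 3(2), B6 female vector 5.1(1) and 2.1(1)), all 8 passed, and Dhx58 (1.06, adjusted p = 0.0419) passed too.

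The 2 probe sets of Xaf1 went opposite ways. The second was above background on 18 of 18 arrays of 129, at 8.09, 11.00 and 12.10 (lowest, median, highest), and on 0 of 19 of B6, at 2.19, 2.41 and 2.57. The signal was at least 205-fold higher in 129, the mean of 10.87 being set against the background level in place of the measured B6 mean of 2.37. This probe set passed the filter only through 129, so its p-value is no support and is left out. Nothing in the values says which transcripts or alleles each probe set detects, so a direction for Xaf1 as a gene is not given; averaging both probe sets gave -3.25.

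In vector arrays alone, 9.46% of all probe sets differed between strains and 3 members were called, all higher in B6, or 2 without Xaf1. They were Xaf1 (1.85 ± 0.43, adjusted p = 0.00546), Samd9l (0.99 ± 0.23, adjusted p = 0.00608) and Herc6 (1.66 ± 0.44, adjusted p = 0.0149). Herc6 was lost without 129 female vector 4(1) (1.34, adjusted p = 0.0554) and without 129 female vector 1(3) and B6 female vector 5.1(1) (1.40, adjusted p = 0.0523). Irf1 (1.08, adjusted p = 0.0751) and Oasl2 (2.35, adjusted p = 0.0985) followed. Irf1 passed without 129 female vector 1(3), 129 female vector 2(3) or B6 female vector 2.1(1), and Oasl2 without 129 female vector 2(3). The median over the 33 members was 0.03, with 17 of them higher in B6.

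Other interferon-related lists moved in part with strain, to be read against the 25.2% of all probe sets that did. Of 8 measured interferon-inducible GTPases, which attack pathogen vacuoles, 4 were higher in B6: Irgm2 (1.51, adjusted p = 0.000708), Iigp1 (2.07, adjusted p = 0.00322), Ifi47 (1.62, adjusted p = 0.0128) and Igtp (0.85, adjusted p = 0.0193). Among 15 NF-kB and inflammatory genes, Cxcl1 (-0.83), Il6 (-2.20) and Saa3 (-2.30) were lower in B6 and none was higher. Ifi204, of the p200 family of interferon-inducible DNA-binding proteins, went against the GTPases: it was lower in B6 (-1.20, adjusted p = 0.00910), also in vector arrays (-1.55, adjusted p = 0.0331). In vector arrays, Cxcl1 (-1.03), Saa3 (-3.28) and Stat3 (0.85) were called as well, and none of the GTPases. In the upstream pathway, Stat3 (0.68, adjusted p = 0.0101), Pias1 (0.31, adjusted p = 0.0196) and Tlr3 (0.30, adjusted p = 0.0285) were higher in B6. Ifnar1 (-0.47, adjusted p = 0.0226), Irf5 (-0.28, adjusted p = 0.0350) and Tbk1 (-0.33, adjusted p = 0.00183) were lower. Cell type markers differed too. Of 10 astrocyte markers, 4 were higher in B6 (Slc1a3 by 0.96, Aqp4 by 0.93, Sox9 by 0.77 and Glul by 0.38), and none of 9 tested microglia markers passed. Of 6 fibroblast and meningeal markers, 4 were lower in B6. Col1a1 differed by -3.02, Col1a2 by -2.75 and Dcn, above background on 7 arrays of 129 and 1 of B6, by -3.04. Col3a1, above background on 15 of 18 arrays of 129 and none of B6, was at least 26.2-fold higher in 129. In vector arrays the 3 collagen genes were called too. The endothelial marker Flt1, above background on 8 arrays of 129 and none of B6, was at least 3.04-fold higher in 129. Dcn, Col3a1 and Flt1 passed the filter only through 129, so their calls are no support for a difference. The part of the cell type markers in the strain differences was not tested. In bulk RNA, fewer cells of a type and less RNA per cell cannot be told apart.

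Cdca7l gave no call among the interferon-stimulated genes. Averaged over strains and sexes, 0.00782% of all probe sets differed between Cdca7l and vector arrays, and 0 of the 29 tested members did (limma), with 0 members at an unadjusted p under 0.05. Of the 33 members, 28 lay higher with Cdca7l, with a median of 0.19, against 0.02 over all genes. Members moved together within groups and 4 of the 33 were not tested, so this count is a description only. The members with the smallest p were Xaf1 (0.51 ± 0.31), Irf1 (0.44), Rtp4 (0.43), Ifih1 (0.32) and Ifi27 (0.14), each with an adjusted p of 0.999. The median ran from 0.09, without 129 male vector 3(3), to 0.24 as each array was left out in turn.

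The direction was not the same in the 4 strain and sex groups, and in each of them 0% of all probe sets and 0 members were called. In B6 males, 32 of 33 members lay higher with Cdca7l, with a median of 0.71. In 129 males, 30 of 33 lay lower, with a median of -0.35. In 129 females 27 lay higher, with a median of 0.39, and in B6 females 21, with a median of 0.05. The medians of all genes were -0.005, -0.05, 0.06 and 0.03 in that order. Members with an unadjusted p under 0.05 numbered 11, 2, 1 and 0. The members moved together within groups, so neither these counts nor those of direction are numbers of independent results. The share of all probe sets at that threshold is not given, so no excess is read from them. A fit with array weights estimated gene by gene, added after seeing the data, called 3 members in B6 males (Oas1a, Rtp4 and Usp18, all higher) and 10 in 129 males, all lower, where it called 0.848% and 6.21% of all probe sets.

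**Figure D3:**
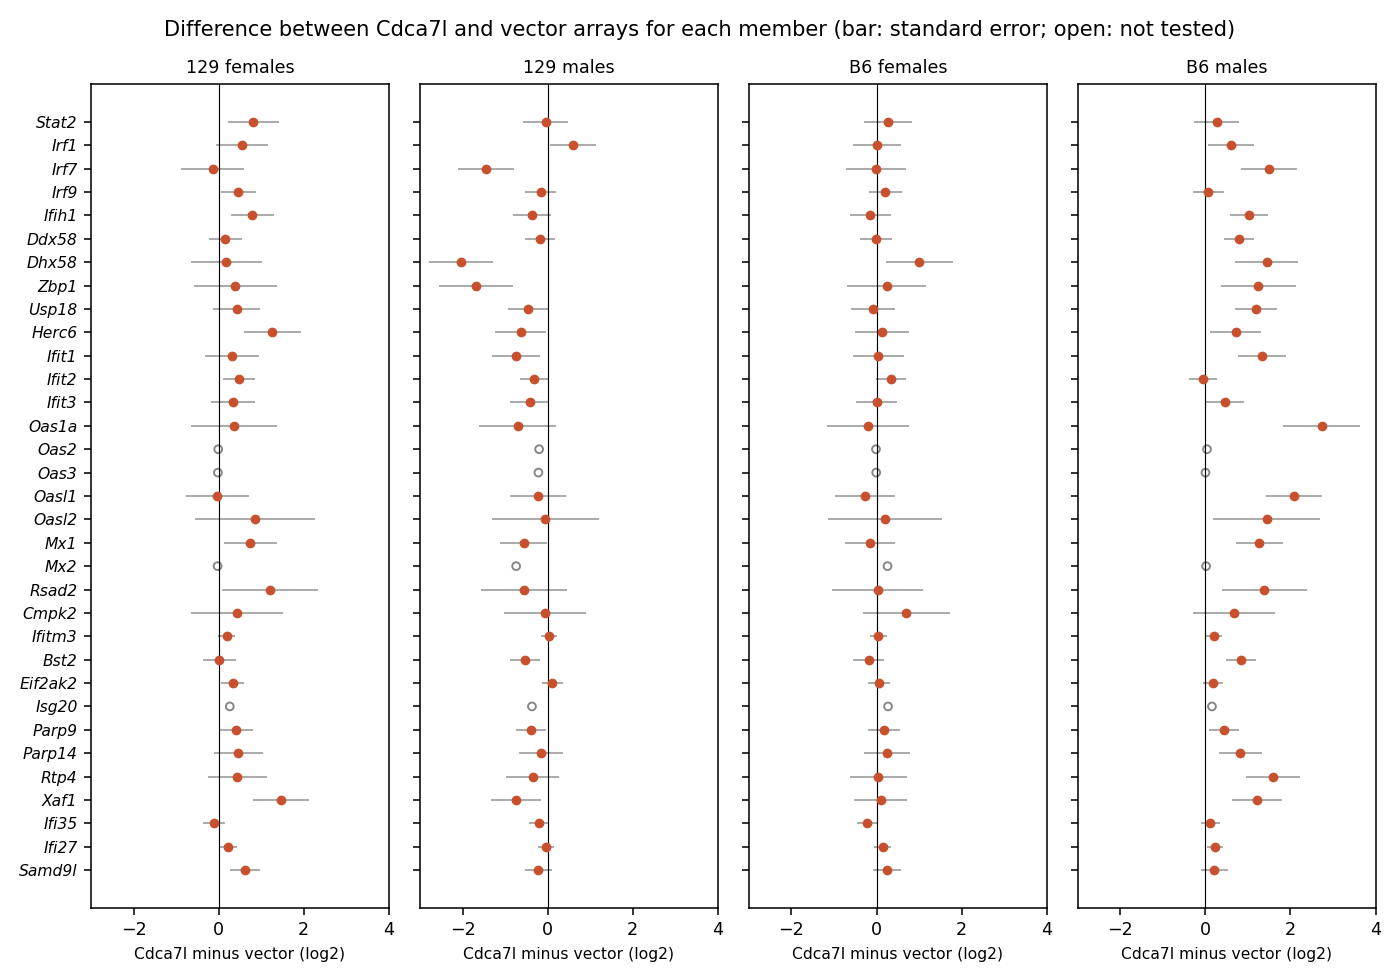
Cdca7l minus vector difference of each interferon-stimulated gene in the 4 strain and sex groups, in log2 units, with 1 row per gene and bars of 1 SE. Open points are genes that were not tested. Points lie mostly right of 0 in B6 males (32 of 33) and left of 0 in 129 males (30 of 33), and no single difference passed the test.

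In B6 males, Oas1a was 3.03, 3.59, 8.09, 8.54 and 8.72 on the vector arrays and 8.76, 8.76, 8.79, 9.41 and 9.92 on the Cdca7l arrays. The groups do not overlap, and the vector arrays 2(2) and 5.6(1) stood far below the other 3. The difference was 2.74 ± 0.90 (SE; unadjusted p = 0.00491, adjusted p = 1 by limma). Rtp4, a chaperone of the antiviral response, was 8.56, 8.71, 11.05, 11.26 and 11.57 with vector and ran from 11.21 to 12.38 with Cdca7l. Its difference was 1.59 ± 0.63 (unadjusted p = 0.0166).

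Usp18 repeated the pattern at 9.16, 9.26, 11.54, 11.62 and 12.03 with vector and 11.78, 11.87, 11.88, 11.96 and 12.07 with Cdca7l (1.19 ± 0.48, unadjusted p = 0.0197). The same vector arrays, 5.6(1) and 2(2), were the low ones for Usp18, Rtp4 and Oas1a. Oasl1 differed from this, at 2.07 to 2.22 on all 5 vector arrays and at 2.19, 2.79, 3.09, 6.39 and 6.59 with Cdca7l (2.08 ± 0.66, unadjusted p = 0.00362). In this comparison only the Cdca7l arrays 2(2) and 5.6(1) exceeded background for Oasl1. They are among the 4 arrays that let Oasl1 pass the filter, the fewest allowed. The p-value of Oasl1 is therefore no support for a difference. Bst2, which tethers budding virions to the membrane, differed by 0.84 ± 0.35 (unadjusted p = 0.0215).

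Without the vector arrays 5.6(1) and 2(2), the B6 male differences of Oas1a, Rtp4, Usp18 and Bst2 were 0.68, 0.53, 0.18 and 0.47, and that of Oasl1 was 2.04. The median over the 33 members was 0.41. These arrays were picked for their low values, so smaller differences were bound to follow for the genes low on them. These 2 vector arrays were also low in the GTPase list (-1.76 and -1.79 as mean deviations from each gene's mean) and in the NF-kB list (-2.26 and -2.27). Their astrocyte markers lay 0.88 and 0.82 above the mean over all arrays. Microglia marker levels averaged 3.30 over the vector arrays of B6 males (3.16 to 3.42) and 3.93 over the Cdca7l arrays (3.28 to 5.04). Their part in the difference was not tested.

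In 129 males, Dhx58 was 2.18, 4.18, 5.51, 5.75 and 7.70 on the vector arrays and 2.44, 2.88, 3.03, 3.31 and 3.49 on the Cdca7l arrays. Of the vector arrays, 4 were above every Cdca7l array and 1, 3(3), was below them all; the difference was -2.03 ± 0.75 (unadjusted p = 0.0105, adjusted p = 1 by limma). Irf7 was 3.30, 4.65, 5.34, 5.51 and 8.06 with vector and ran from 3.30 to 4.97 with Cdca7l (-1.44 ± 0.66, unadjusted p = 0.0365). Zbp1 was 6.25, 7.88, 9.41, 9.45 and 9.82 with vector and 4.71, 4.86, 6.52, 9.03 and 9.25 with Cdca7l, a difference of -1.68. The Irf7 and Zbp1 groups overlap.

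The vector arrays 5(2) and 3(2) of 129 males carried the strongest microglia signal of the series, with 11 of 14 markers above background on each. The mean marker level was 5.26 over the vector arrays of this group (3.36 to 8.02) and 3.65 over its Cdca7l arrays. Without 5(2) and 3(2), Dhx58 differed by -1.01, Irf7 by -0.55, Zbp1 by -1.63, Bst2 by -0.10 and Ifit1 by -0.18. The median over the members was then 0.09, on the other side of 0. Leaving out 3(3) instead moved the median to -0.78, and leaving out 5(2) alone to -0.18.

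In 129 females, Xaf1 was 7.01, 7.45, 8.20 and 8.64 on the vector arrays and 8.62, 8.85, 9.77 and 9.95 on the Cdca7l arrays. The groups overlap by a single pair of values, and the difference was 1.47 ± 0.66 (unadjusted p = 0.0320, adjusted p = 1 by limma). The second probe set of Xaf1 was 10.06, 10.22, 10.75 and 11.05 with vector and 10.21, 10.83, 11.16 and 11.86 with Cdca7l. There the groups overlap widely, and the difference was 0.50 ± 0.49 (unadjusted p = 0.322). Herc6 differed by 1.27, Stat2 by 0.81, Ifih1 by 0.79 and Samd9l by 0.62. The median of 0.39 fell to 0.0007 without vector 4(1) and rose to 0.64 without vector 2(3). Centring each array on its median moved the median of all probe sets from 0.07 to -0.18 here, and that of the members from 0.39 to 0.15. In B6 females, the smallest unadjusted p-values belonged to Dhx58 (1.01 ± 0.79), Ifit2 (0.35), Ifi35 (-0.22), Ifi27 (0.15) and Samd9l (0.24), none with an unadjusted p under 0.05.

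Differences between these effects were tested directly. None of the 4 contrasts of effects called a probe set (0%) or a member by limma. Between B6 and 129 males, all 33 members had the larger Cdca7l difference in B6, with a median of 0.97 (0.04 over all genes), and 12 had an unadjusted p under 0.05. With gene-by-gene array weights, 13 members and 4.5% of all probe sets were called. Dhx58 had the smallest p (3.47 ± 1.06, unadjusted p = 0.00252, adjusted p = 1), followed by Irf7 (2.93), Bst2 (1.37), Oas1a (3.44) and Ifit1 (2.08). Between B6 males and B6 females, 26 members lay higher in males (median 0.58), led by Oasl1 (2.34) and Oas1a (2.93). The value of Oasl1 rests on the 4 arrays where it was above background. Between B6 and 129 over both sexes, 29 lay higher in B6 (median 0.29), and between males and females 14 lay higher in males (median -0.07). Members with an unadjusted p under 0.05 numbered 2, 2 and 0 in these. These counts and the 12 above are of genes that moved together, and no excess is read from them.

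Sex gave no call among the members. Averaged over strains and plasmids, 0.321% of all probe sets and 0 of the 29 members differed between males and females (limma), with 2 members at an unadjusted p under 0.05. Bst2 was the closest, lower in males by 0.57 ± 0.18 on the log2 scale (adjusted p = 0.126), and Irf1 (0.66), Rtp4 (-0.52), Xaf1 (0.45) and Stat2 (0.40) followed. In vector arrays, 0.0626% of probe sets and 0 members were called (1 member at an unadjusted p under 0.05), with Bst2 at -0.69 (adjusted p = 0.329). The medians over the members were 0.05 and 0.09, and both turned below 0 (-0.03 and -0.08) when arrays were centred.

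A module score, the mean over the 33 members of each value minus the gene's mean over all arrays, summarises these shifts by array. It averaged -0.72 ± 0.74 (SD, n = 4) in 129 female vector arrays and -0.30 ± 0.76 (n = 4) with Cdca7l. In 129 males it averaged 0.21 ± 1.00 (n = 5) with vector and -0.22 ± 0.26 (n = 5) with Cdca7l. It was 0.34 ± 0.28 (n = 5) and 0.45 ± 0.17 (n = 4) in B6 females, and -0.34 ± 0.56 (n = 5) and 0.46 ± 0.36 (n = 5) in B6 males. The pooled within-group SD was 0.582, so the Cdca7l minus vector difference exceeded 1 SD in B6 males (0.79) and not in 129 females (0.42), 129 males (-0.43) or B6 females (0.11).

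The lowest scores belonged to 129 female vector 4(1) at -1.66, 129 male vector 3(3) at -1.45, 129 female Cdca7l 4(1) at -1.06, and B6 male vector 2(2) and 5.6(1) at -0.93 and -0.88. The astrocyte marker scores of the 2 arrays of 129 female clone 4(1) were also low, at -2.79 and -2.31. The highest score was that of 129 male vector 5(2) at 1.20, followed by B6 male Cdca7l 5.6(1) at 0.87, B6 female vector 5.1(1) at 0.75 and B6 male Cdca7l 2(2) at 0.73. Microglia marker scores on these 4 arrays were 4.05, 0.68, 2.69 and 1.07, all above the mean over all arrays. Next came 129 female Cdca7l 1(3) at 0.65, 129 male vector 3(2) at 0.62 and B6 female Cdca7l 4(5) at 0.57. Their microglia marker scores were -0.83, 3.20 and -0.62, so not every array with a high member score was high in these markers. The part of microglia in the member scores was not tested.

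**Figure D4:**
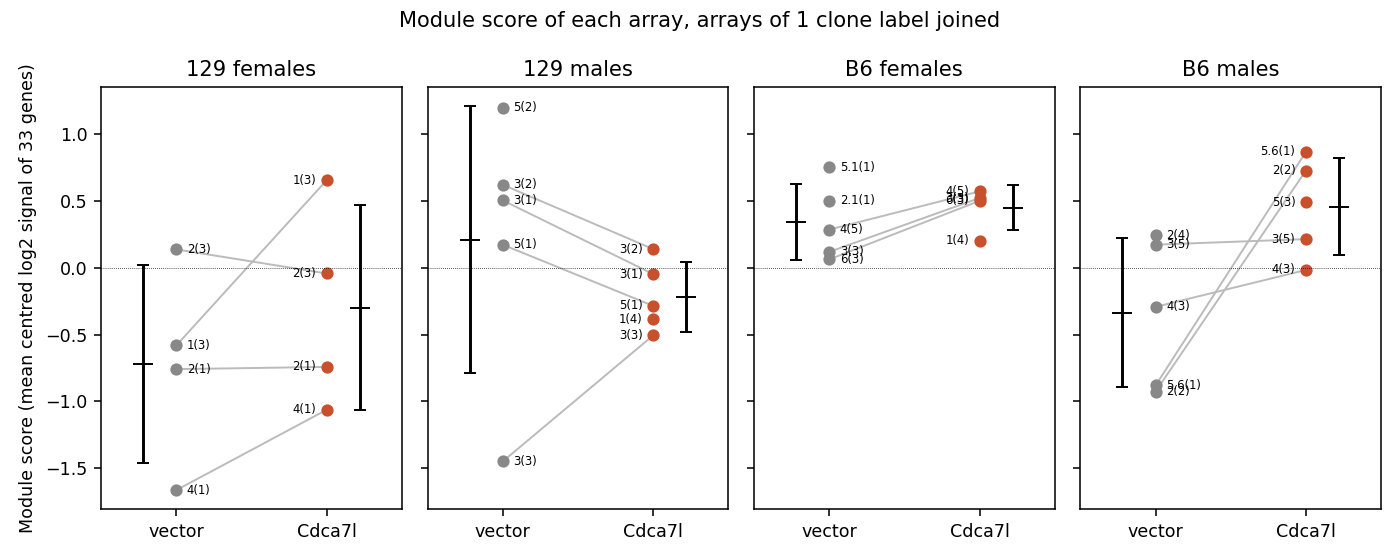
Module score of the interferon-stimulated genes on each array (mean log2 deviation over 33 genes), by strain, sex and plasmid, with lines joining arrays of the same clone label and bars for the group mean and SD. Cdca7l arrays of B6 males lie above their vector partners in 4 of 4 pairs, while 129 males are spread from -1.45 to 1.20 with vector.

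Vector and Cdca7l arrays with the same clone label can be set side by side. The score was higher with Cdca7l in 4 of 4 pairs of B6 males (0.04 to 1.75) and in 3 of 3 pairs of B6 females (0.29 to 0.44). It was higher in 3 of 4 pairs of 129 females and in 1 of 4 pairs of 129 males, 3(3), by 0.94. In B6 males, clones 5.6(1) and 2(2) gave the large differences, 1.75 and 1.65, with 32 and 30 of 33 members higher.

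The genes rose and fell together from array to array within groups. The following correlations, over 37 arrays after each group's mean was removed, are descriptions of arrays that also share depth of signal and cell composition. Over the 528 pairs of members, the median Pearson r was 0.48, with 498 pairs above 0 and 251 above 0.5. Over the 253 pairs of the 23 members above background on every array, the median was 0.58, with 246 pairs above 0. Against the score of all the other members, Oasl2 had the highest r at 0.93, followed by Ifit1 and Ifit3 at 0.90, Ifih1 at 0.89 and Rtp4 at 0.87, and 26 members exceeded 0.5. Oas3 (0.09), Oasl1 (0.20) and Oas2 (0.20) had the lowest r along with Ifit2 (0.10), which was abundant on every array.

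Ifit2 stood apart from its family. Ifit1 and Ifit3 moved together at r = 0.80, while Ifit1 and Ifit2 had r = -0.07. Ifit2 and Ifit3, neighbours in the RefSeq annotation of chromosome 19, had r = 0.07. The neighbours Rsad2 and Cmpk2 had r = 0.85, and Parp9 and Parp14 had 0.62. The highest r of any pair, 0.97 for Oas2 and Oas3, came from 1 array, 129 male vector 3(1). There Oas3 was at 3.33 and Oas2, at 3.08, was still below background. Both genes were below background on every other array.

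Among 12092 other tested genes, the 10 most like the members, by r with the module score over the 37 within-group deviations, were Iigp1 (0.87), Parp12 (0.87), Irgm2 (0.86), Rnf213 (0.85), Gbp3 (0.84), Lgals3bp (0.84), Gbp7 (0.81), Ifi27l2a (0.80), Gbp6 (0.79) and Igtp (0.79). Of these 10, 6 encode interferon-inducible GTPases. In all, 36 genes exceeded 0.7.

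Of the lists set beside the members, the GTPases had an r of 0.92 with the score (Spearman's rho 0.85), and the NF-kB and inflammatory genes 0.78 (rho 0.80). Leaving out the 2 arrays farthest from the median of each list left these at 0.90 and 0.79. The GTPase relation was 0.95 within 129 and 0.86 within B6, and that of the NF-kB list 0.84 and 0.89. Astrocyte markers had r = 0.55 (rho 0.34), which was 0.71 within 129 and 0.04 within B6, and microglia markers had 0.44 (rho 0.33), which was 0.43 and 0.49. Fibroblast markers (0.07) and the p200 family of DNA-binding proteins (-0.05) had almost none.

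**Figure D5:**
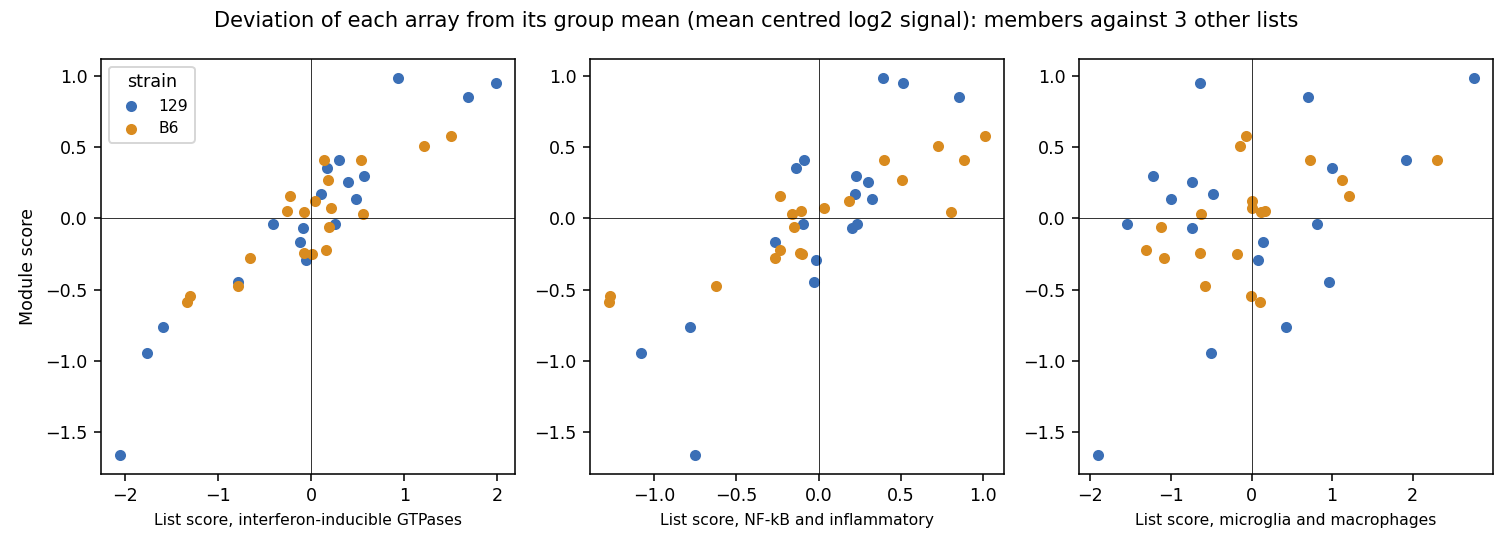
Within-group deviation of the module score (vertical axis, log2 units) against that of the GTPase, NF-kB and microglia lists (horizontal axis, log2 units), 1 point per array, 37 arrays in each panel, coloured by strain. The GTPase points follow a line (r = 0.92), and the microglia points are wide, with 129 male vector 5(2) far to the right.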

How the data were processed

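RNA from 37 astrocyte cultures was measured on 37 one-colour arrays. The deposited table holds log2 values of 45101 probe sets, made by the authors with GCRMA and Partek 6.5, per the submitters' processing notes. Joint or separate normalization of the arrays is not given in the sources. Per the labels' protocols, 10 ng of RNA with a quality score (RIN) over 9 was amplified. GCRMA estimates background from probe sequence and compresses dim values, so differences near background may be understated. Array number, not read depth, limits the precision.

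The values were used as deposited. Probe sets were named from the platform annotation, where 34958 carried 1 gene symbol, 932 several and 9211 none; those with several were not named. A probe set was tested where it exceeded 3.189, the median of the table, on at least 4 arrays. Of all, 25579 passed, 19458 did not, and 64 controls were left out. One linear model in limma 3.58.1 (R 4.3.3) gave a mean to each of 8 groups, with moderated variances (empirical Bayes) on 29 residual degrees of freedom, and 13 contrasts were taken. A call is a Benjamini-Hochberg adjusted p under 0.05 over all probe sets tested; adjusted p-values are limma's, two-sided. The fit was tested on simulated data.

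The labels call the cultures biological replicates. Vector and Cdca7l arrays of a strain and sex share some clone labels. Deviations of 15 such pairs correlated at 0.376 or more in B6. In 129, clone 2(3) of females (0.061) and clone 3(3) of males (-0.0887) had almost no correlation. The other pairs of 129 correlated at 0.416 to 0.716. The labels do not say whether a shared label marks the same isolate. The fit used no block, so it treats arrays of a shared label as independent.

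The members and the lists set beside them were chosen with earlier results of these data known. Genes named are all the members; the members called in a comparison, or the 5 with the smallest p where fewer than 5 were; the genes of each other list that were called between strains; and the 10 genes most like the module score. Other genes were named after their values were seen. Alternatives covered the variance prior, probe set choice, the filter, normalization, weights of arrays, clone label blocks and arrays left out. Promoter sequences come from RefSeq (GRCm38.p6); the files give no coordinates.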

Additional observations from a re-analysis of the deposited data

Results flagged for a closer look

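In groups of 4 or 5 arrays, 1 array stood apart from the rest of its group in 11 of 120 checks of a gene the text turns on (Dixon's test). The checks share arrays and the genes move together, so this count is not set against the 1 in 20 of independent checks. Of the 11, 7 were on the array of 129 male vector 3(3), low each time. It carried Irf1 at 8.372, where the other 4 ran from 9.466 to 9.907, Samd9l at 10.16 (others 11.22 to 11.62) and Oasl2 at 3.37 (others 10.36 to 12.27). Ifit1 was 9.696 there (others 12.34 to 13.06), Rtp4 8.208 (others 11.80 to 12.97) and Xaf1 7.452 on its probe set with the highest mean (others 10.73 to 11.71). On the second probe set of Xaf1, the same array lay at 8.094 (others 11.35 to 12.10).

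The array of B6 female vector 2.1(1) was high for Usp18 at 13.13 (others 11.71 to 11.82) and for Xaf1 at 12.69 (others 11.01 to 11.35). Its microglia marker score was 1.60, with 8 of 14 markers above background; their part was not tested. The last 2 were for the second probe set of Xaf1, below background, at 2.190 on B6 female Cdca7l 1(4) and 2.194 on B6 male Cdca7l 4(3), and say nothing about the gene's level.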

How the results depend on the processing

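Every alternative of the Cdca7l comparisons left 0 members called except those with array weights. With weights estimated by REML, which stopped before it converged (weights from 0.0357 to 10.06), 1 member was called in 129 males (Dhx58), 1 in B6 males (Oas1a), 10 for the difference between those effects, 6 for strain in vector arrays and 5 for sex. With weights estimated gene by gene, these counts were 10, 3, 13, 13 and 7, with 15 for strain, 4 for sex in vector arrays and 6 for the Cdca7l effect in B6 minus that in 129. Probe sets called rose as well, from 0 to 98 and 1589 in 129 males and from 6456 to 12132 and 14556 for strain, so the counts of members are read against those. With weights gene by gene, 45.4% of all probe sets were called for sex and 31.1% for sex in vector arrays. That fit called 47% for strain in vector arrays and 1.04% for the Cdca7l effect in B6 minus that in 129. The REML fit called 25.2% for sex, 21.5% for strain in vector arrays and 0.997% for the difference between the male effects. For strain, leaving out each array gave 7 to 10 members; random replicate blocks on the clone label (correlation 0.409) gave 7, with Ifit3 lost, as without the filter or with arrays centred. In vector arrays, leaving out each array gave 2 to 6 members. Probe sets called between strains numbered 4249 with the random block, 3379 with probe sets averaged by gene and 4303 without the 3 low arrays of 129. With a fixed replicate block (11 residual degrees of freedom), 0 members were called for Cdca7l, and the medians were 0.37 averaged, -0.12 in 129 males, 0.32 in B6 females and 0.85 in B6 males. Differences that turned sign were Herc6 (-0.33) and Stat2 (-0.14) in 129 females with weights gene by gene, Ifi35 in B6 females with the fixed block (0.053), and Xaf1 between strains with its probe sets averaged (-3.25, and -3.28 in vector arrays). The causes were not tested, beyond what the opposed probe sets of Xaf1 show. Medians within 0.1 of 0 turned sign with arrays centred: -0.05 in B6 females, -0.09 for strain in vector arrays and 0.12 for the Cdca7l effect in males minus that in females.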
